A study of Mus musculus with 2 samples.

Results

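The S and G2/M cell cycle genes are 41 genes chosen by name, 21 that act mainly in S phase and 20 that act mainly in G2 and mitosis, of 21849 features in the deposited matrices. All 41 were found by their symbol. They were followed in costal-cartilage-derived stem cells (CDSCs) of the mouse, in 1 single-cell RNA sequencing library of primary CDSCs and 1 of cultured CDSCs at passages 2 to 3. Per the study's methods, newborn C57BL/6J mice, of the CD45.1 or the ZsGreen strain, gave the rib cartilage, the digested cells were sorted as CD45-negative and CD51-positive, and the cultured ones were expanded in MEM with foetal bovine serum. The labels name bone marrow as the tissue of both libraries, and neither the number of animals per library nor which strain each came from is given. The comparison asks how far the transcripts of DNA replication and mitosis differed between cells taken from the cartilage and cells expanded on plastic. With 1 library per group there was no replicate and no test was run, so every interval below is an exact 95% interval for counting error in these 2 libraries only.

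A dividing cell copies its DNA in S phase and separates the copies in mitosis, and many genes for each step are transcribed mainly when that step is near. E2F factors switch on many S phase genes once the retinoblastoma protein is released from them by cyclin-dependent kinases, while many G2/M genes are held down in resting cells by the DREAM complex and are later activated by MYB and FOXM1, through a short element called CHR and nearby CCAAT boxes. In growing cartilage, chondrocytes divide in the proliferative zone and leave the cycle as they enlarge, and cells from cartilage that grow on plastic commonly enter repeated cycles.

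A molecule was counted by its unique molecular identifier (UMI). A barcode counted as a cell if it had 500 genes and 1000 UMIs or more, with mitochondrial genes giving 10% of its UMIs or less, which left 11746 of 11896 primary and 5338 of 10798 cultured barcodes, with a median of 10026.5 and 56864.5 UMIs. Because of that gap in depth each cell was thinned at random to 5000 UMIs, and 787 primary and 795 cultured cells below that depth were set aside, so that levels are given over 10959 primary and 4543 cultured cells. The reporter ZsGreen was at 227 UMIs per 100 primary cells and at 0 in the cultured library, so strain and culture cannot be told apart. The CD51 gene Itgav was at 45.5 and 55.7 UMIs per 100 cells and the CD45 gene Ptprc at 0.338 and 0.242. Of 15 chondrocyte markers all were detected in primary and 14 in cultured cells, where their sum was 465 and 6.02 UMIs per cell. The libraries shared 32 barcodes, 15 of them kept in both.

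The promoters of the members were read from RefSeq on GRCm38.p6, from 250 bases before to 50 bases after each gene's start, and were available for 17 S and 17 G2/M members. Mcm6 and Hells are shown as S members with E2F letters (TTTCCCGC, TTTCGCGC, TTTGCCGC or TTTGGCGC on either strand) in the last 150 bases before the start, Ccnb1, Top2a and Ube2c as G2/M members with CHR letters (TTTGAA or TTTAAA) and CCAAT there, and Slbp as an S member that was lower in cultured cells. Capitals mark E2F letters in Mcm6 and Hells and CHR and CCAAT letters in the other stretches, on either strand, and the Mcm6 stretch holds a pair of E2F matches that overlap. Each sequence runs 5′ to 3′ along its gene, so that a gene on the minus strand reads backwards along the coordinates.
Mcm6, minus strand, chr1:128359706-128359855: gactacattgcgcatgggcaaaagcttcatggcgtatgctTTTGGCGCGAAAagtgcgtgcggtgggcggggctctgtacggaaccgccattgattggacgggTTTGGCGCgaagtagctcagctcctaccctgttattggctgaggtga
Hells, plus strand, chr19:38930840-38930989: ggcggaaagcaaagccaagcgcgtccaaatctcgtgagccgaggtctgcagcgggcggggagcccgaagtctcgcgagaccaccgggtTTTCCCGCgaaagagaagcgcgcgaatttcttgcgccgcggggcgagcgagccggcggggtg
Ccnb1, minus strand, chr13:100786487-100786636: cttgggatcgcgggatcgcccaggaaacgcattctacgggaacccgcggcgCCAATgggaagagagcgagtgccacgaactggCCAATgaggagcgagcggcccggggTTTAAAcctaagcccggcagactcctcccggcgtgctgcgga
Top2a, minus strand, chr11:99024190-99024339: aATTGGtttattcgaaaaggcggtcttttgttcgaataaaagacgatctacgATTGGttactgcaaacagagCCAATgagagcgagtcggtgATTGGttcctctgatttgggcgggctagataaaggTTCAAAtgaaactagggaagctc
Ube2c, plus strand, chr2:164769779-164769928: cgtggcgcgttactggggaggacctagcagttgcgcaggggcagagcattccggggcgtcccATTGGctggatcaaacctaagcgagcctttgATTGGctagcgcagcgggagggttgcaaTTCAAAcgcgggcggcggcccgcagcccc
Slbp, minus strand, chr5:33652575-33652724: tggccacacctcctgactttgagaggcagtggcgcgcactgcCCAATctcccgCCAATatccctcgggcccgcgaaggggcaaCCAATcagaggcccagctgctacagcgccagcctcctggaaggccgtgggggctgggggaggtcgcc
Over the whole 300-base windows, E2F letters stood in 9 of 17 S promoters (52.9%) and 1 of 17 G2/M promoters (5.88%), that of Cdk1, against 2.61% of the promoters of 27025 genes. CHR letters together with CCAAT stood in 14 of 17 G2/M promoters (82.4%) and 5 of 17 S promoters (29.4%), against 12.2% of all genes. The windows of Slbp, Pcna and Ung held no E2F letters, which says only that these letters are not there. Those of Cdc45, Mcm2, Rrm1, Rrm2 and Tyms, all higher in cultured cells, held none either. Dtl, which did not differ by more than counting error, did have a match.

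Both lists were higher in the cultured library, the G2/M list by far more than the S list. The 20 G2/M members summed to 0.553 UMIs per primary cell and 3.21 per cultured cell, a log2 ratio (cultured over primary) of 2.54 (2.49 to 2.58) or 5.81-fold. The 21 S members summed to 1.37 and 1.97 UMIs per cell, a log2 ratio of 0.53 (0.49 to 0.56) or 1.44-fold. All 41 members passed the minimum of 0.01 UMIs per cell in at least 1 library. All 20 G2/M members and 13 of 21 S members were at least 2-fold higher in cultured cells, where 28.9% of the 11966 genes above the minimum were, and 2 S members were at least 2-fold lower, where 13.2% of all were. The median log2 ratio was 2.46 over the G2/M members, 1.48 over the S members and 0.40 over all genes above the minimum. Scaling by trimmed mean of M values, which brings that median to 0.01, lowered every ratio by 0.38 and left 20 G2/M and 17 S members above 0. The same 20 and 17 were above 0 before it, as were 7768 of all 11966 genes above the minimum. The number of all genes above 0 after it was not counted. Of all genes at least 2-fold apart, 68.6% were higher in cultured cells before and 52.1% after that scaling. The S sum came down to 0.14 under that scaling. In a population mean, more dividing cells and more transcript per dividing cell cannot be told apart, so the cells are taken up singly after the genes.

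**Figure D1:**
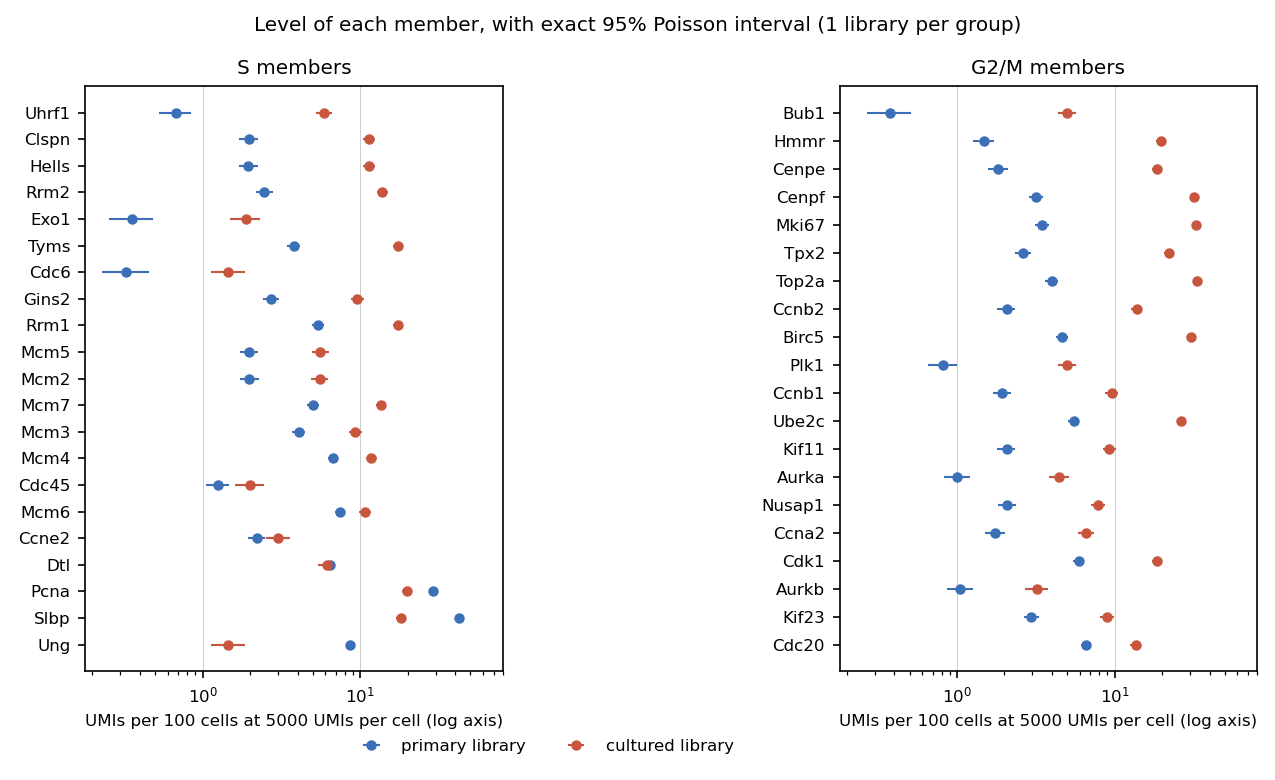
Level of each S member (left) and G2/M member (right) in UMIs per 100 cells at 5000 UMIs per cell, on a log axis, in the primary (blue) and cultured (red) library, sorted by ratio, with exact 95% Poisson intervals as bars. Every G2/M member lies to the right in cultured cells, while Ung, Slbp and Pcna lie to the left.

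Among the S members that open and unwind replication origins, the ratios differed in size. Cdc6, which loads the MCM helicase on origins, was at 0.328 (0.23 to 0.455) UMIs per 100 primary cells and 1.45 (1.12 to 1.85) per 100 cultured cells, a log2 ratio of 2.14 (1.54 to 2.77). The 6 subunits of that helicase, Mcm2 to Mcm7, were all higher in cultured cells, from a log2 ratio of 0.53 for Mcm6 and 0.80 for Mcm4, both below 2-fold, to that of Mcm5, which was at 1.97 and 5.57 UMIs per 100 cells. Mcm3 (1.19), Mcm7 (1.44) and Mcm2 (1.48) lay between. The helicase partners were Gins2, with a log2 ratio of 1.82 (1.60 to 2.04), and Cdc45, with 0.68 (0.28 to 1.07). Ccne2, a cyclin E that drives entry into S phase with CDK2, stood at 2.20 and 3.02 UMIs per 100 cells, a log2 ratio of 0.46 (0.14 to 0.76). All 10 of these genes were higher in cultured cells, as were 7768 of the 11966 genes above the minimum. Of the 10, 6 were at least 2-fold higher, Cdc6, Gins2 and 4 of the helicase subunits, where 28.9% of all genes were. Scaling by trimmed mean of M values brought Mcm6 to 0.15 and Ccne2 to 0.07.

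The enzymes that make DNA precursors were all at least 2-fold higher in cultured cells. Rrm2, the cell-cycle-regulated subunit of ribonucleotide reductase, was at 2.46 (2.18 to 2.78) UMIs per 100 primary and 13.8 (12.7 to 14.9) per 100 cultured cells, a log2 ratio of 2.48 (2.27 to 2.69). Its partner Rrm1 had a log2 ratio of 1.68 (1.52 to 1.84), and Tyms, which makes thymidylate, one of 2.20 (2.03 to 2.38). The genes of chromatin copying and of the replication checkpoint were among the highest S members. Uhrf1, which guides maintenance DNA methylation, rested on 74 UMIs in primary and 268 in cultured cells, and its log2 ratio of 3.13 (2.75 to 3.52) was the highest of the S list. Hells, a chromatin remodeller, was at 1.95 and 11.3 UMIs per 100 cells, a log2 ratio of 2.53 (2.30 to 2.77). Clspn, the adaptor that lets ATR activate the checkpoint kinase CHK1, had one of 2.54 (2.31 to 2.78), and the repair exonuclease Exo1 one of 2.39 (1.83 to 2.98) from 39 and 85 UMIs.

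4 S members went the other way or did not differ by more than counting error. Slbp, which binds the stem loop of histone mRNAs, lies on the minus strand at chr5:33634952-33652574 and was at 42.4 (41.2 to 43.7) UMIs per 100 primary and 18.1 (16.9 to 19.4) per 100 cultured cells, a log2 ratio of -1.23 (-1.34 to -1.12). Ung, the uracil-DNA glycosylase that removes uracil from DNA, was at 8.64 (8.10 to 9.21) and 1.45 (1.12 to 1.85), a log2 ratio of -2.57 (-2.96 to -2.21). Pcna, the sliding clamp of DNA polymerase, lies on the minus strand at chr2:132249162-132253314 and was at 28.8 (27.8 to 29.8) and 19.7 (18.4 to 21.0), a log2 ratio of -0.55 (-0.66 to -0.44). The intervals of Slbp, Ung and Pcna did not overlap between the libraries. These intervals cover counting error only, and the share of all genes with such intervals was not counted. Dtl, the adaptor by which a ubiquitin ligase recognises PCNA-bound proteins, was at 6.46 and 6.12 UMIs per 100 cells, a log2 ratio of -0.08 (-0.28 to 0.12). Its sign turned with another thinning seed, at 0.07, and with thinning to 2500 UMIs, at 0.02. The Dtl ratio was -0.21 with possible doublets left out and -0.46 with scaling by trimmed mean of M values.

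In the primary library Slbp, Pcna and Ung were detected nearly as often in cells without any other member as in all cells. Slbp and Pcna alone made up 52.1% of the S UMIs of primary cells and 19.2% of those of cultured cells. Slbp had a UMI in 32.5% of primary cells, and in 31.8% of the 4156 primary cells in which no other member was seen. In cultured cells the same shares were 15.3% and 12.5%. Pcna had a UMI in 24.2% of primary cells and 23.2% of primary cells without another member, against 15.7% and 10.6% in the cultured library. For Ung the primary shares were 7.96% and 7.90%. Across primary cells the Pearson correlation of each of these genes with the sum of the other S members was 0.10 for Slbp, 0.10 for Pcna and 0.01 for Ung, over 10959 cells that share 1 library and 1 depth, and over 4543 cultured cells it was 0.32, 0.44 and 0.24. Other S members shared these traits. Mcm6 had a correlation of 0.07 in primary and 0.40 in cultured cells. It was seen in 6.88% of primary cells and 6.32% of those without another member. Dtl had a primary correlation of 0.11 and shares of 5.73% and 5.41%. The median primary correlation over the S members was 0.13. Before thinning, Slbp was seen in 53.0% of the kept primary and 66.7% of the kept cultured cells, the reverse order of its level. Leaving out Slbp, Pcna and Ung was a choice made after their values were seen. The other 18 S members summed to 0.568 UMIs per primary and 1.58 per cultured cell, a log2 ratio of 1.47 (1.42 to 1.52).

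The G2/M members, in contrast, were higher in cultured cells without exception, also under each of the 11 alternative settings, of which the minimum of 0.05 UMIs per cell left 17 members, without Aurka, Aurkb and Plk1. Cdk1, the kinase that starts mitosis, was at 5.91 (5.47 to 6.39) UMIs per 100 primary and 18.6 (17.4 to 19.9) per 100 cultured cells, a log2 ratio of 1.65. Its cyclins had log2 ratios of 2.31 (2.07 to 2.56) for Ccnb1, 2.74 (2.52 to 2.97) for Ccnb2 and 1.91 (1.65 to 2.18) for Ccna2, which also acts in S phase. The mitotic kinases had fewer UMIs. Plk1, which acts at centrosomes and kinetochores, had 89 UMIs in primary and 226 in cultured cells, a log2 ratio of 2.61 (2.25 to 2.99). Aurka, the centrosome kinase, stood at 2.15 (1.81 to 2.50) and Aurkb, the kinase of the chromosomal passenger complex, at 1.61 (1.25 to 1.98) on the log2 scale. Birc5, which brings that complex to the centromere, was at 4.64 and 30.5 UMIs per 100 cells, a log2 ratio of 2.72 (2.57 to 2.87).

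Genes of chromosome structure, kinetochores and the spindle held the highest ratios. Mki67, which coats mitotic chromosomes and is a common proliferation marker, lies on the minus strand at chr7:135689784-135716361 and was at 3.45 (3.11 to 3.82) UMIs per 100 primary and 32.8 (31.2 to 34.6) per 100 cultured cells, a log2 ratio of 3.25 (3.09 to 3.42). Top2a, the topoisomerase that untangles sister chromatids, had 438 UMIs over all primary and 1518 over all cultured cells, a log2 ratio of 3.06 (2.91 to 3.22). The kinetochore genes Cenpf and Cenpe both had a log2 ratio of 3.34. The checkpoint kinase Bub1 had the highest ratio, 3.75 (3.26 to 4.26), from 41 UMIs in primary and 228 in cultured cells. Hmmr, a spindle-associated protein, was at 1.48 and 19.6 UMIs per 100 cells, a log2 ratio of 3.73 (3.49 to 3.98). The spindle assembly factor Tpx2 followed with 3.07 (2.88 to 3.26). The motor Kif11, which pushes spindle poles apart, had 2.17 (1.93 to 2.41), the microtubule binder Nusap1 1.93 (1.68 to 2.17) and the cytokinesis motor Kif23 1.59 (1.38 to 1.81). At mitotic exit, Ube2c, the ubiquitin-conjugating enzyme of the anaphase-promoting complex, was at 5.52 and 26.2 UMIs per 100 cells, a log2 ratio of 2.25 (2.11 to 2.39). Cdc20, which activates that complex, had the lowest ratio of the list, 1.05 (0.89 to 1.20), and it was also the G2/M member most often seen in primary cells without any other member, at 3.57% against 4.63% of all primary cells.

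The G2/M members were found together in few cells. 85.2% of primary and 56.0% of cultured cells held no G2/M UMI at 5000 UMIs. A cell was called high in a list with at least 5 of its UMIs, which is a range of a continuous sum and not a cell type. For G2/M this held for 181 of 10959 primary cells (1.65%, 1.42% to 1.91%) and 701 of 4543 cultured cells (15.4%, 14.4% to 16.5%). Only 0.155% of primary and 2.69% of cultured cells lay at 4 or 5 UMIs. Before thinning, 2.14% of primary and 45.4% of cultured cells had 5 or more, at their unequal depths. The highest 1% of cells by G2/M sum held 60.4% of all G2/M UMIs of the primary library and 16.0% of those of the cultured library.

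**Figure D2:**
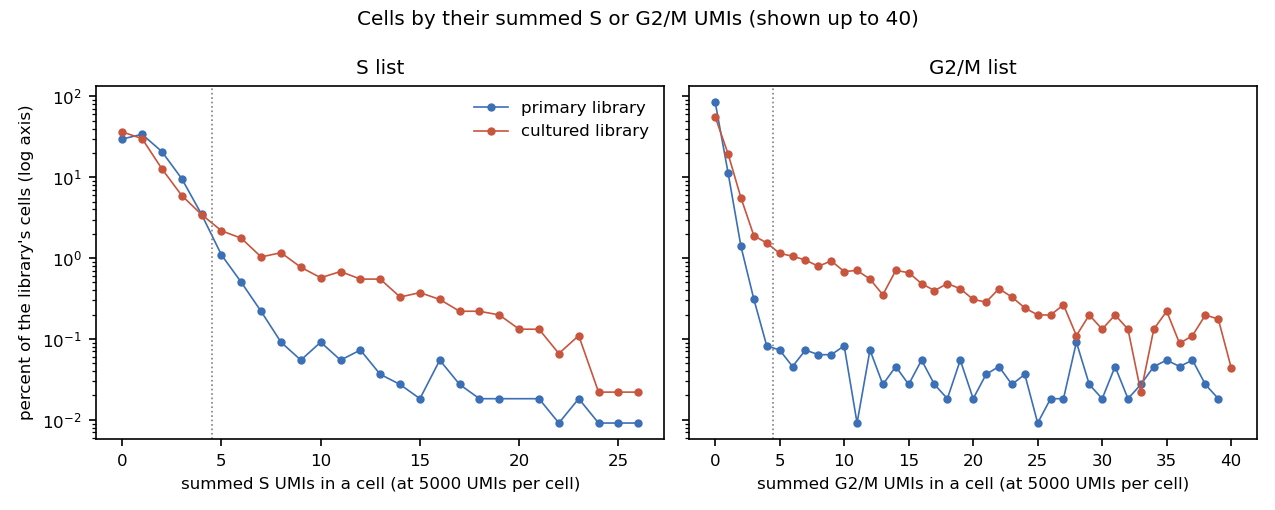
Percent of each library's cells (log axis) at each summed S (left) or G2/M (right) UMI count per cell, at 5000 UMIs per cell, for primary (blue) and cultured (red) cells. The dotted line lies between 4 and 5 UMIs, and to its right are 1.65% of primary and 15.4% of cultured cells for G2/M, and 2.45% and 11.4% for S.

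Split at 5 UMIs, the libraries differed more in the share of G2/M-high cells than in the G2/M sum within them. Because the same sum chose the cells, the cut shapes the level within them. The split therefore cannot tell more dividing cells from more transcript per dividing cell. The share of high cells was 9.34-fold higher in the cultured library. Within those cells the G2/M sum had a median of 22 UMIs in primary and 14 in cultured cells, with an SD between cells of 14.4 and 12.9, and its mean in culture was 0.748 times that of primary cells. Outside them it was 0.157 and 0.503 UMIs per cell, 3.20-fold higher in cultured cells, so that 72.1% of the G2/M UMIs of the primary and 86.8% of those of the cultured library came from high cells. The S list behaved otherwise. Cells with at least 5 S UMIs were 269 of the primary (2.45%, 2.17% to 2.76%) and 519 of the cultured cells (11.4%, 10.5% to 12.4%), but they held only 13.5% of the primary and 55.7% of the cultured S UMIs, and 4.56% and 5.64% of cells lay at 4 or 5 UMIs. Before thinning the shares were 20.8% and 72.3%. Without Slbp, Pcna and Ung the high cells were 98 (0.894%) and 446 (9.82%), with 8.65 and 8.78 UMIs of the 18 genes per high cell.

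The lists overlapped in the cells. In the primary library 84 cells were high in both, 97 in G2/M only and 185 in S only, and in the cultured library 374, 327 and 145. Counts of the members varied together across cells to different degrees. Each G2/M member had a Pearson correlation of 0.39 to 0.81 with the sum of the other G2/M members over the primary cells, led by Ube2c, and of 0.39 to 0.73 over the cultured cells, led by Cenpf. The S members had 0.01 to 0.31 over primary and 0.23 to 0.59 over cultured cells, led by Uhrf1 and Clspn. The points share a library and a fixed depth, and low counts pull such correlations down.

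**Figure D3:**
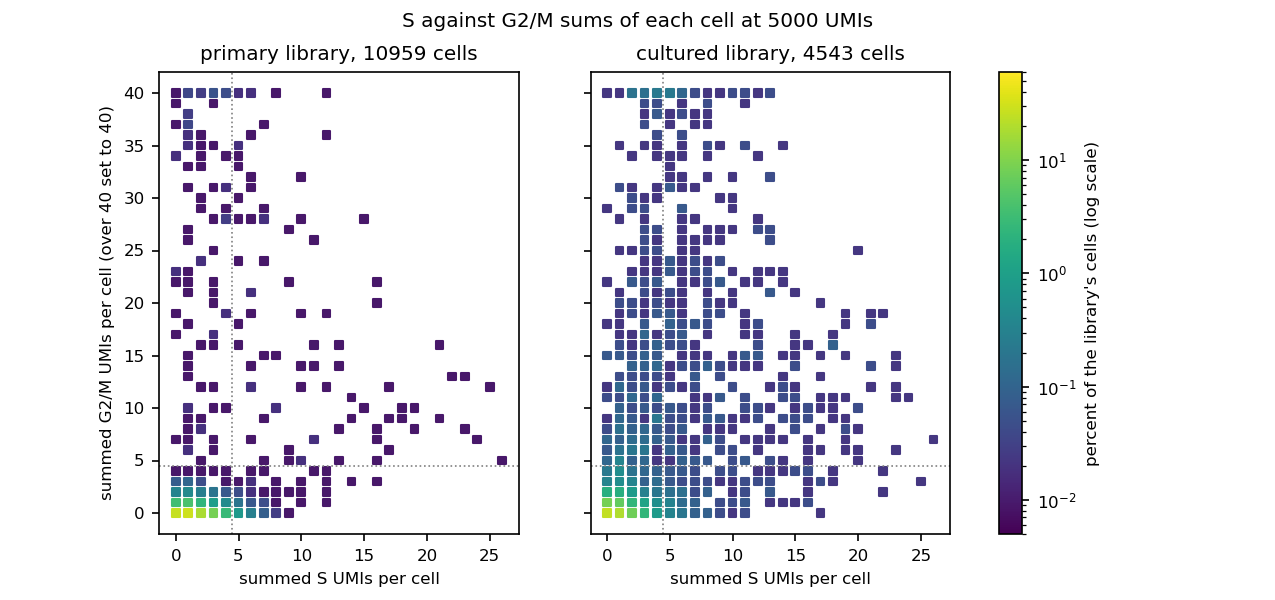
Each square is a pair of S (horizontal) and G2/M (vertical) UMI sums per cell at 5000 UMIs, coloured by the percent of the library's cells on a log scale, for 10959 primary (left) and 4543 cultured (right) cells. Dotted lines lie between 4 and 5 UMIs, and the upper right field holds 84 primary and 374 cultured cells.

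Within G2/M-high cells the members no longer pointed one way. Each member was compared in cells with at least 5 UMIs of the other 19 members, so that its own count did not choose the cells. There 13 of the 20 were lower in cultured cells with an interval below 0, 6 had intervals that spanned 0 and Hmmr was higher, and the median log2 ratio was -0.58. Of 11897 genes above the minimum in these high cells 19.7% were lower by the same rule and 28.4% higher, with a median of 0.16. Of the 3733 with at least 209 UMIs over both libraries, the count of the least counted member, 23.4% were lower and 50.4% higher. Cdk1 was at 237 (215 to 261) UMIs per 100 such primary cells and 84.4 (77.7 to 91.6) per 100 such cultured cells, a log2 ratio of -1.49 (-1.67 to -1.30). Aurkb was at 52.2 and 16.7, and Ccna2 at 92.2 and 37.9 UMIs per 100 high cells. Ube2c was at 273 and 147. By contrast, Mki67 was at 175 (156 to 195) and 198 (187 to 209), Top2a at 200 (180 to 222) and 185 (175 to 196), and Tpx2 at 121 and 122. Hmmr was at 81.1 (68.5 to 95.4) and 113 (106 to 122). Cdk1, its 3 cyclins, Plk1 and both Aurora kinases were all among the 13 that were lower per high cell in culture, and the 6 whose intervals spanned 0 were Mki67, Top2a, Cenpf, Cenpe, Bub1 and Tpx2. The primary cells of these classes had also been sequenced less deeply, with a median of 17829.5 (high in both) and 16891 (G2/M only) UMIs before thinning, against 72660.5 and 71534 in culture. Cells high in neither list had medians of 10343 in primary and 65527 in culture. Kept primary cells under 5000 UMIs held 0.349 G2/M UMIs per 5000 UMIs, against 0.726 in the deeper ones. In culture these values were 3.34 and 3.61. What the depth limit did to the shares of high cells was not tested.

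**Figure D4:**
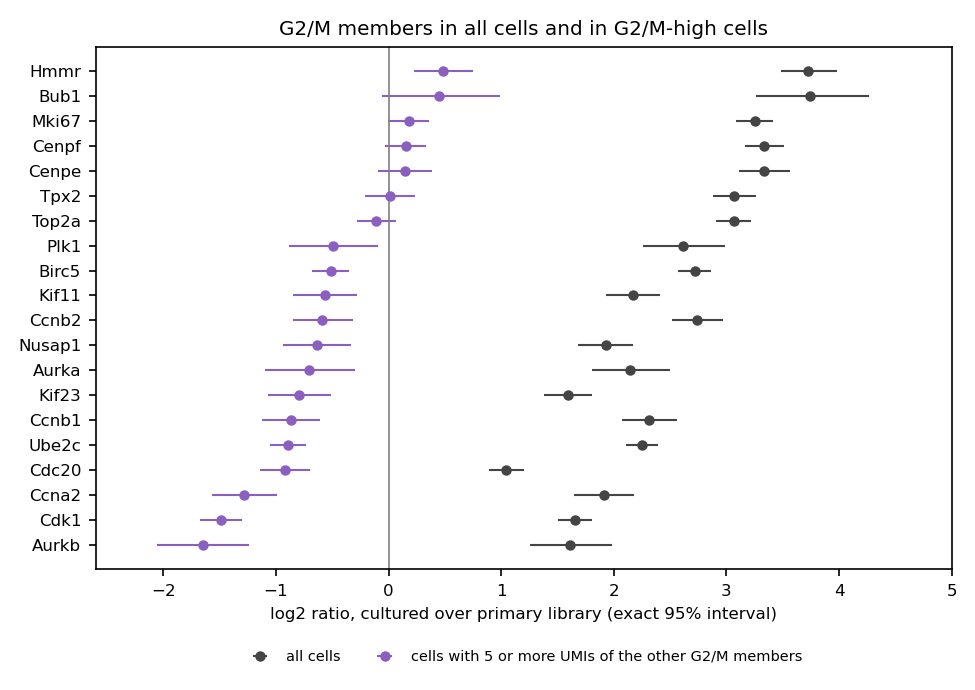
Log2 ratio (cultured over primary library) of each G2/M member over all cells (grey) and over cells with 5 or more UMIs of the other G2/M members (purple), with exact 95% intervals. All grey points lie between 1.05 and 3.75, while purple points run from -1.65 for Aurkb to 0.48 for Hmmr.

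The classes were then described by genes that the rule did not use. Tk1, the thymidine kinase of the salvage pathway, was at 94.0 UMIs per 100 primary cells high in both lists and 0.312 per 100 cells high in neither, and at 69.5 and 1.57 in the cultured library. Hmgb2, a chromatin protein abundant in G2, was at 554 UMIs per 100 primary cells high in G2/M only and 28.1 per 100 high in neither, and at 178 and 24.6 in culture. Cks2, a CDK-binding subunit, showed log2 ratios of that class over cells high in neither list of 5.10 (4.89 to 5.30) in primary and 3.52 (3.31 to 3.73) in cultured cells. The histone transcripts told the S-high classes apart. Replication histones were at 9.30 UMIs per primary cell high in both lists, 5.21 in G2/M only, 1.04 in S only and 1.22 in neither, and at 16.1, 3.09, 6.10 and 2.62 per cultured cell. Primary cells high in S only thus held no more histone UMIs than cells high in neither list, where cultured cells of that class held more. Replication histone mRNAs mostly end in a stem loop in place of a poly(A) tail, so an oligo(dT)-primed library counts only part of them.

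Some G1 regulators were lower in cells high in G2/M only, and others were not. Ccnd2, a D-type cyclin that opens the cycle, was at 23.7 UMIs per 100 primary cells high in G2/M only and 73.2 per 100 high in neither, a log2 ratio of -1.63 (-2.29 to -1.04), and at 279 and 530 in culture, -0.92 (-1.02 to -0.83). The CDK inhibitor Cdkn1a was lower in the same class in both libraries, with log2 ratios of -1.10 (-1.39 to -0.83) and -0.43 (-0.54 to -0.33). In primary cells high in S only, Ccnd2 was at 94.1 UMIs per 100 cells, above the 73.2 of cells high in neither. Cdkn1b, another CDK inhibitor, was not lower in cells high in G2/M only. It was at 20.6 against 11.3 UMIs per 100 primary cells and at 30.3 against 28.1 in culture. Cdkn2c, an inhibitor of CDK4 and CDK6, was at 64.9 UMIs per 100 primary cells of that class against 8.54, but at 31.5 against 34.8 in culture, where the log2 ratio of -0.14 (-0.45 to 0.15) spanned 0. Markers of cell identity went in both directions. Col2a1, the cartilage collagen, stood at log2 ratios of 0.12 (0.10 to 0.14) in primary and 0.05 (-0.06 to 0.15) in cultured cells of that class, and Sox9, the chondrogenic factor, at -0.21 (-0.33 to -0.08) and -0.40 (-0.69 to -0.12). Col1a1, the collagen of bone and fibrous tissue, differed between the high classes of primary cells. It was at 173 UMIs per 100 cells high in both lists and 150 in S only, against 77.5 in neither. In those high in G2/M only it was lower, at a log2 ratio of -1.98 (-2.72 to -1.34) from 19 UMIs. In cultured cells of that class it stood at 0.18 (0.10 to 0.26). Comp, a cartilage matrix protein, was lower in both libraries, at -0.52 (-0.61 to -0.43) and -1.48 (-1.96 to -1.03), and so was Spp1, osteopontin, at -1.41 (-2.36 to -0.60) and -0.52 (-0.55 to -0.49). The collagenase Mmp13 was at 3.98 UMIs per 100 cultured cells of that class against 20.3, a log2 ratio of -2.35 (-3.27 to -1.57). Acta2, smooth muscle actin, was higher in cells high in both lists, by 1.13 (0.82 to 1.42) in primary and 1.37 (1.32 to 1.41) in cultured cells.

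Around the members, the wider machinery of the cycle was described by lists of its other genes. Over all genes above the minimum 28.9% were at least 2-fold higher in cultured cells and 13.2% at least 2-fold lower. Of 38 other G2/M genes 29 were at least 2-fold higher in cultured cells and none at least 2-fold lower, with a median log2 ratio of 2.06, led by the cytokinesis genes Anln (3.66), Kif20a (3.33) and Ect2 (3.12). Tubb4b, a tubulin, was at 0.39, Anp32e at 0.09 and the lamin B receptor Lbr at 0.02. Of 24 other S phase genes 11 were higher and 2 lower, with a median of 0.63. Tk1 (2.90) and Gmnn, the inhibitor of origin relicensing (2.56), stood at the upper end, and the polymerase subunit Pola1 was at 0.03. Cdt1, which loads MCM with CDC6, was at -1.26 (-1.51 to -1.02) and Rpa2, a subunit of the single-strand binding protein, at -1.35 (-1.55 to -1.16), so that the S side was mixed beyond the members too. Of 33 replication histones above the minimum, of 66 in the list, 25 were higher and 2 lower, led by H2ac24 at 0.757 and 70.2 UMIs per 100 cells. H4c8 (5.60) and H4c4 (5.18) followed, and the lowest of those with at least 0.05 UMIs per cell were H2bc4 (1.02), H2ac25 (0.73) and H1f2 (-0.28). Near-identical histone genes can share reads, so their single values are uncertain.

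Upstream and downstream regulators showed no single direction. Among 18 G1 cyclins, CDKs and E2F and RB family genes above the minimum, 10 were higher and 3 lower. The higher share was 55.6%, against 28.9% of all genes, and 13.2% of all genes were lower. Ccnd1 was at 4.92 (4.51 to 5.35) UMIs per 100 primary and 179 (175 to 183) per 100 cultured cells, a log2 ratio of 5.19 (5.06 to 5.32), and Ccnd2 at 72.8 and 485, 2.73 (2.70 to 2.77). Ccnd3 was lower, at 90.1 and 39.8, and Myc was lower, at 66.6 and 12.4, while E2f1, an activator of S phase genes, had a log2 ratio of 2.09 (1.85 to 2.33). Rbl2, a relative of the retinoblastoma protein, was at -0.17. Among the 8 CDK inhibitors 5 were higher (62.5%) and 2 lower. Cdkn2a, which encodes p16 and p19ARF, was at 0.146 and 48.2 UMIs per 100 cells. Cdkn2b had a log2 ratio of 4.15 (3.94 to 4.37), the phosphatase gene Cdkn3 one of 2.34, Cdkn2c one of 1.85, Cdkn1b one of 1.34 and Cdkn2d one of -1.16. Cdkn1c, the inhibitor p57 of cartilage, was at 355 and 17.8 UMIs per 100 cells, a log2 ratio of -4.32 (-4.42 to -4.22), and Cdkn1a at 235 and 293, 0.32 (0.29 to 0.35). Of 16 genes of the anaphase-promoting complex, its adaptors and its inhibitor, 4 were higher and none lower. These 25% lay below the 28.9% of all genes, and the list median of 0.38 was close to that of all genes. The inhibitor Fbxo5 (3.34) led the list. The subunits Anapc13 (2.13) and Cdc27 (1.38) came next, and the lowest were the enzyme Ube2s (-0.42) and the subunits Cdc16 (-0.47) and Cdc26 (-0.64).

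**Figure D5:**
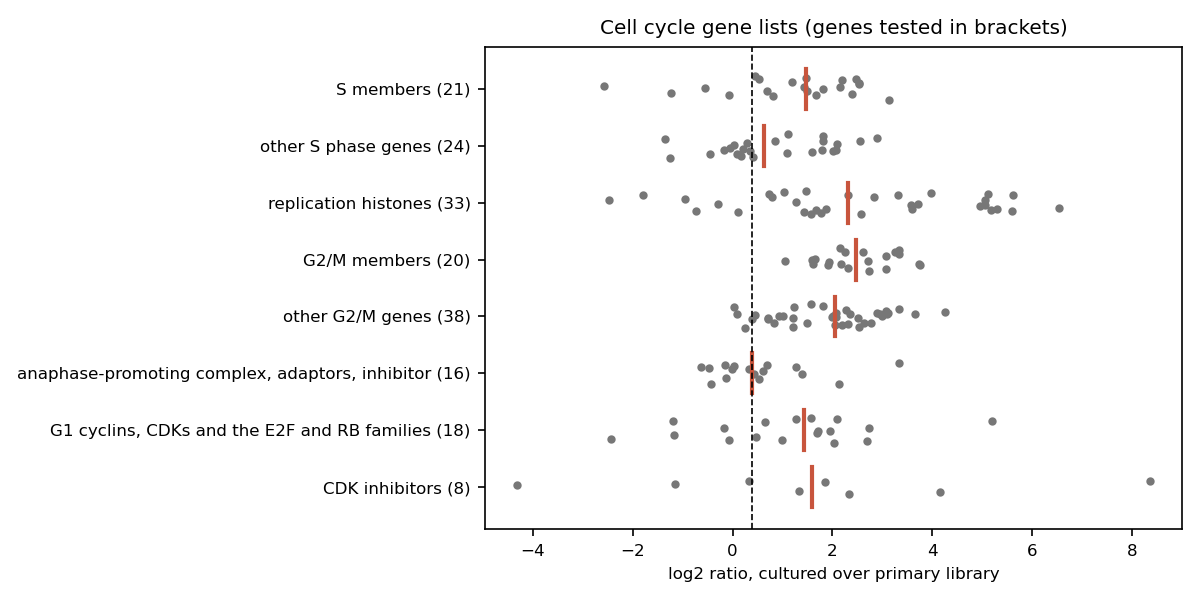
Log2 ratio (cultured over primary library) of each gene above the minimum in 8 cell cycle lists (grey points), with the list median (red bar) and the median of all 11966 genes (dashed line, 0.40). The G2/M members and the other G2/M genes have medians of 2.46 and 2.06, and the anaphase-promoting complex list has 0.38.

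Cells with markers of other types were few. Those with at least 3 UMIs of haematopoietic, erythroid or endothelial markers numbered 32 of the primary and 11 of the cultured cells and gave at most 1.27% of the UMIs of either list. Haematopoietic markers moved with the high classes in culture, at 0.862 UMIs per cell in S only, 0.457 in both and 0.682 in G2/M only, against 0.059 in neither, and most of these UMIs were of Lyz2 and Pf4. Of the 11 cultured cells with at least 3 such UMIs 7 were in the high classes, and without them the values were 0.0282, 0.0242, 0.0246 and 0.0160. In primary cells the same markers stood at 0.0649, 0.0476 and 0.0928 against 0.109. A fixed number of cells per library was ranked as possible doublets, by scores of the doublet finder Scrublet, which had not worked here. Ranked cells were 8.65% of primary cells high in S only and 8.33% of those high in both. They were 21.6% of those high in G2/M only and 10.1% of those high in neither list. In the cultured library these shares were 28.3%, 12.0%, 18.7% and 8.20%. The part of the ranked cells in these counts was not tested beyond leaving the ranked cells out, after which the S log2 ratio was 0.49.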

How the data were processed

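The libraries were made with a 10x Chromium 3′ v3.1 kit. The authors deposited whole UMI counts of each gene in each barcode without normalisation, made with Cell Ranger 7.0.0 per the submitters' processing notes. The methods state GRCm38, the notes also list GRCm39, and the annotation release is not given in the sources used here. Gene coordinates came from GENCODE M21 (GRCm38) by gene identifier.

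The 41 members, the other lists and the thresholds were chosen with earlier results of these data known. Members were all described. Other lists were named by their 3 highest and 3 lowest genes with at least 0.05 UMIs per cell, plus CDK inhibitors and D-type cyclins, and the genes by which cell classes are described were chosen from those tabulated after their values were seen. Histones were matched by newer symbols, chosen after the feature names were seen. Cells were thinned without replacement (seed 1) and summed in numpy 2.4.6 and scipy 1.17.1. Levels and shares have exact Poisson and Clopper-Pearson intervals, and ratios exact conditional ones, with counts under 3 raised to 3. They cover counting error only. UMI counts of 3′ ends were not divided by gene length, and levels were compared between libraries, not between genes. Each ratio was read at a total of 54795000 primary and 22715000 cultured UMIs after thinning.

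Scrublet in scanpy 1.11.5 called 0 and 1 doublets among 11746 and 5338 cells and had not worked, so all cells were kept, and leaving out the 1118 and 461 highest-scoring cells was an alternative. Others were 2500 and 10000 UMIs per cell, no thinning, another seed, other mitochondrial and level limits, other thresholds for a high cell, leaving out cells of other types, and scaling factors from edgeR 4.0.16. Thinning and ratios were checked on simulated data.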

Additional observations from a re-analysis of the deposited data

Results flagged for a closer look

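G2/M UMIs were also counted in barcodes that the filter left out of every comparison. The 5460 cultured barcodes left out, with a median of 775 UMIs and 0.406% mitochondrial UMIs, held 3.32 (3.22 to 3.42) G2/M UMIs per 5000 UMIs, against 3.61 in kept cultured cells of at least 5000 UMIs. The 150 primary barcodes left out held 0.619 (0.404 to 0.906) per 5000 UMIs, against 0.726 in kept primary cells. Both were singled out only for lying above 0, which any counted UMI gives, in barcodes that no comparison used. The cultured value was above the primary one there too, but 5339 of the cultured barcodes had under 500 genes or 1000 UMIs. All these barcodes come from the same libraries as the kept cells, so this is no separate comparison.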

How the results depend on the processing

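The number of members at least 2-fold higher in cultured cells stayed within 1.5 times of its value under the 11 alternatives run for each list. The log2 ratio of the summed G2/M members, 2.54, was 1.98 at 10000 UMIs per cell, 2.33 without thinning and 2.15 with TMM scaling. That of the S members, 0.53, was 0.44 at 10000 UMIs, 0.48 without thinning, 0.49 without the highest-scoring cells and 0.14 with TMM scaling. It was 1.47 without Slbp, Pcna and Ung, an alternative that was added once the data had been seen. The cause of these shifts was not tested. Thresholds of 3 and 10 UMIs for a high cell gave 15.5% and 0.493% (S, primary), 20.8% and 4.51% (S, cultured), 2.04% and 1.33% (G2/M, primary) and 18.9% and 10.6% (G2/M, cultured). Without Slbp, Pcna and Ung, S-high cells were 0.894% of primary and 9.82% of cultured cells. No paired analysis was possible because each group is 1 library and no test was run. Leaving out a replicate was not possible either. Differences between animals, strains, preparations and sequencing runs cannot be told apart from culture, and counts of under 100 UMIs, as for Cdc6, Exo1, Uhrf1, Bub1 and Plk1 in primary cells, leave wide intervals.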
